A study of Gallus gallus with 24 samples.

Results

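The genes described here are 35 members of the cell division machinery, from the cyclins that start a round of division to the kinetochore proteins that end it. They were followed in the retina of hatched chicks, dissected in one piece with the retinal pigment epithelium. A gene was found through the gene symbol that the array's annotation gives its probe sets, and each gene was represented by the probe set with the highest mean signal over all arrays. Of the 35 genes, 30 had a probe set and 28 were bright enough to be tested, among 13009 genes with a probe set and 11117 tested on the whole array. The genes CDK4, CDK2, CDC6, CCNB2 and AURKA were not analysed here.

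Division is driven by cyclins and the kinases they activate. D-type cyclins with CDK4 or CDK6, and then E-type cyclins with CDK2, commit a cell to copying its DNA. The MCM ring is loaded at replication origins and fired with CDC45, PCNA and its loader hold the polymerases on the template, and TYMS and ribonucleotide reductase supply nucleotides. CDK1 with A- and B-type cyclins then starts mitosis, in which spindle and kinetochore proteins part the chromosomes. The neurons of the chick retina are born before hatching. Background knowledge places the remaining division at the retinal margin, where progenitors persist, with Müller glia able to re-enter the cycle after injury, while pigment epithelium of the hatched bird rarely divides.

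The study fitted a translucent white plastic goggle over 1 eye of white Leghorn chicks at 1 week of age, a treatment under which chick eyes grow too long and become short-sighted. The groups were goggled and open eyes after 3 d of goggle wear and goggled and open eyes after 6 h, with 6 eyes each from 6 chicks per time. All animals were anaesthetised with ether for the fitting, and the open eye is the fellow eye of a goggled bird, not that of an untreated one. Eyes were cut open along their equator. How much of the retinal margin the tissue held is not stated in the labels. Each eye gave 1 Affymetrix GeneChip Chicken Genome array, and the arrays whose titles carry E were read as goggled and those with C as open eyes. Precision is limited by the 6 arrays per group.

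Photoreceptor genes were bright on every array, with a summed signal of 9 tested rod and cone genes between 15379 and 28067 intensity units, and all 10 pigment epithelium genes tested had means above background. The median signal of an array was lower at 3 d, with group means of 32.6 in goggled and 35.6 in open eyes, against 39.7 in goggled and 40.4 in open eyes at 6 h (n = 6 each). The actin control probe sets had 3'/5' ratios that ranged from 2.40 to 5.05. Some arrays carried more RNA of other tissues. The mean of 10 tested markers of choroid, sclera and vessels was 8.58 on the log2 scale in goggled replicate 3 at 3 d, where the other 5 goggled eyes of that time had 5.59 to 5.95, and it was over 1 above the group median also in open replicates 1 and 2 at 3 d and open replicate 5 at 6 h. In these bulk samples, fewer cells of a type and less RNA per cell cannot be told apart.

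The D- and E-type cyclin genes and CDK6 had mean signals above background, and 4 of 7 spindle and kinetochore genes with a probe set were near it. The phases were not cleanly separated. CDC45 and RRM2, of DNA replication, were not above background, while CCNA2, CDK1, TOP2A and MKI67 were. Background was set at a signal of 22.8, the 95th percentile of readings from 57 reporter probe sets that match no chicken gene. Of the 30 genes with a probe set, 22 had a mean signal above it, 6 were near background and 2 were too dim to be tested. Signals of different genes are not compared, since probe sets differ in how strongly they bind. For the same reason a signal near background does not show that a transcript is absent. Counts of arrays below use this 1 value, and some differ when each array is held to its own reporter probe sets: 22 in place of 24 arrays for MKI67, 20 in place of 22 for MCM5, 21 in place of 16 for KIF11 and 15 in place of 9 for TPX2.

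All 4 D-type cyclin and kinase genes measured were above background on 24 of 24 arrays. CCND1, the cyclin D1 gene, ranged from 618 to 1148 with a median of 824. CCND2, CCND3 and CDK6, which encode cyclins D2 and D3 and their kinase, ranged from 120 to 243, from 87.3 to 151 and from 93.5 to 205. Cyclin E1, from CCNE1, was between 38.2 and 72.8 and above background on 24 arrays, and cyclin E2, from CCNE2, between 13.7 and 45.3 and above background on 17.

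The genes of origin licensing and firing were split. MCM6 lay between 202 and 312 and was above background on 24 arrays. Of the other ring subunits, MCM2 passed background on 23 arrays, MCM5 on 22 and MCM3 on 15, with medians of 50.1, 38.5 and 26.3. CDC45, the helicase cofactor that fires the origins, had a median of 3.50 and passed background on 0 of 24 arrays.

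The genes of DNA synthesis were above background except RRM2. PCNA, the sliding clamp, had a median of 887 and the lowest within-group coefficient of variation of the 28 tested members, 10.7%. TYMS, the thymidylate synthase gene, ranged from 303 to 681, RRM1, the large subunit of ribonucleotide reductase, from 95.3 to 153, and CHEK1, the S-phase checkpoint kinase, from 167 to 289. RFC3, a subunit of the clamp loader, was above background on 18 arrays. RRM2, the small subunit of ribonucleotide reductase that is made in S phase, had a median of 14.6 and passed background on 5 arrays.

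In G2 and mitosis the measured signals reached into background. CCNA2, the cyclin A2 gene, and CDK1, the kinase of mitotic entry, were above it on 24 arrays, with medians of 58.3 and 82.3. CDC20, the activator of the anaphase-promoting complex, passed it on 7 arrays with a median of 17.2. Of the 7 spindle and kinetochore genes with a probe set, 2 had means above background, 4 were near it and CENPF was not tested, with 0 of 24 arrays above background. The spindle motor gene KIF11 passed it on 16 arrays and the checkpoint kinase gene BUB1 on 20. Numbers of arrays were 11 for CENPE, a kinetochore motor, 9 for TPX2, a spindle assembly factor, 8 for CENPU, a centromere protein, and 4 for BUB1B, the BUBR1 checkpoint protein. Between eyes of a group, the median coefficient of variation was 31.3% over the 6 tested spindle and kinetochore genes and 17.6% over the 4 D-type cyclin and kinase genes. Of those 6 genes 4 were near background, and of the D-type genes none was. The part of dimness in this spread was not tested.

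The 3 chromatin proteins of cycling cells were above the common background on 24 of 24 arrays, MKI67 on 22 by each array's own. TOP2A, the topoisomerase of dividing cells, had a median of 65.9, and MKI67, the Ki-67 antigen used to mark cycling cells, a median of 33.7 with a lowest value of 24.2. HMGB2, a chromatin protein that is also abundant in progenitors, had a median of 665.

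**Figure D1:**
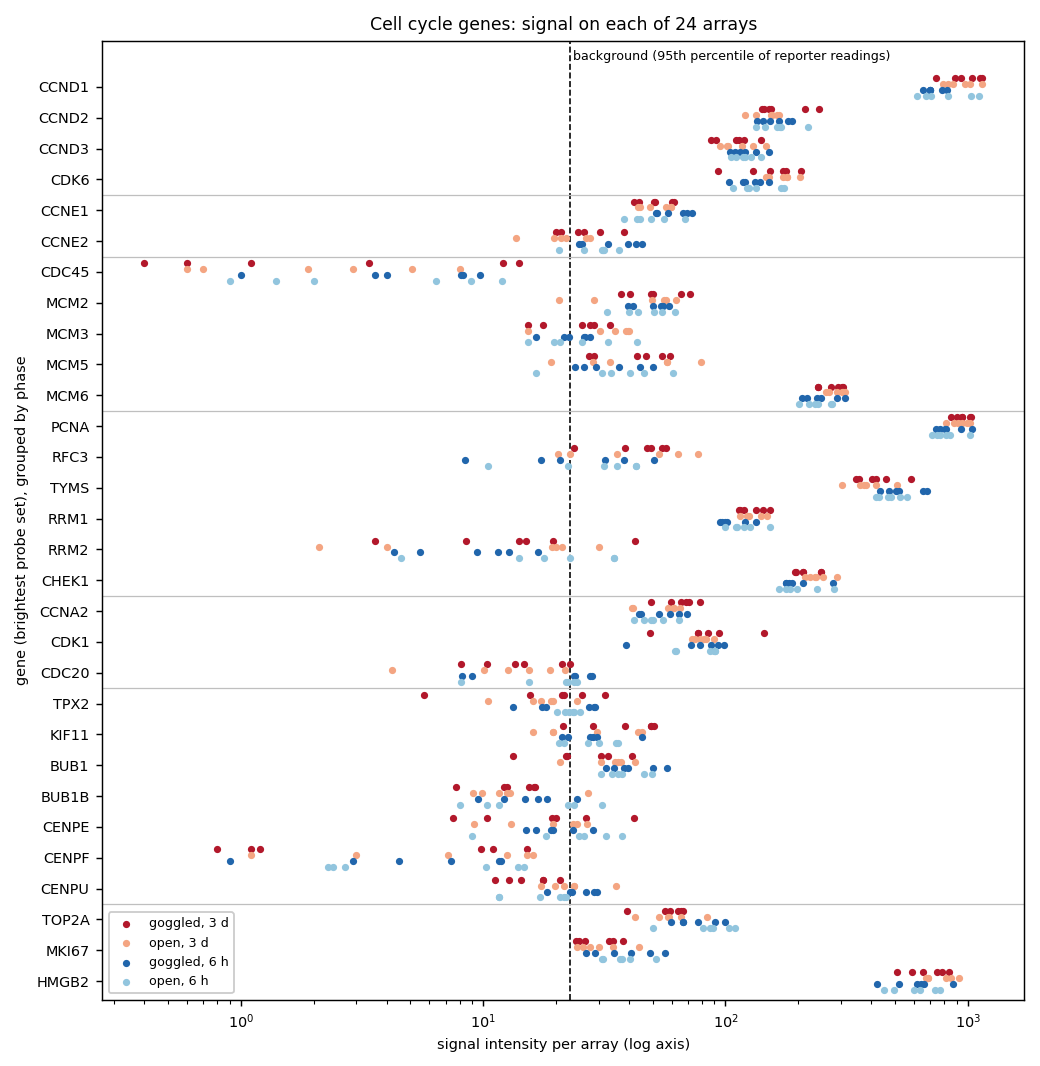
Signal intensity (log axis) of the 30 genes with a probe set, grouped by phase, on each of the 24 arrays, with the 4 groups as coloured rows of 6 points and the background of 22.8 as a dashed line. The D-type cyclin genes lie wholly right of the line, CDC45 and CENPF wholly left of it, and most spindle and kinetochore genes across it.

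Goggled and open eyes were compared to ask whether blurring the image changes expression of the division machinery. No member passed limma's test at a Benjamini-Hochberg adjusted p under 0.05 at 3 d, at 6 h, over both times or in the difference of the goggle effects. The share of all genes that passed was 0.018% at 3 d, 0.0% at 6 h, 0.018% over both times and 0.0% for the difference. Counted over probe sets it was 0.00743% at 3 d and 0.00743% over both times. At an unadjusted p under 0.05, limma gave 1 of 28 members at 3 d against 4.52% of all genes, and 2 of 28 at 6 h against 2.26%. It gave 0 over both times against 5.89%, and 1 in the difference against 1.79%. As deposited, the members did not lean one way: 15 of 28 were higher in goggled eyes at 3 d and 14 of 28 at 6 h, with median log2 differences of 0.01 and -0.01, against -0.004 and -0.006 over all genes. After quantile normalization or median centring 20 or 22 of 28 were higher at 3 d, and no member passed. The members' median log2 differences were then 0.07 or 0.10, against 0.003 or 0.06 over all probe sets. That set is wider than the brightest probe set of each gene, so the medians are not of like sets. At 6 h 14 of 28 were higher under both.

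At each time the 95% intervals, from the fit without a chick term, were wide. Over the 22 members above background they reached from -0.58 (MCM3) to 0.68 (KIF11) on the log2 scale at 3 d and from -0.64 (RFC3) to 0.48 (CCNE1) at 6 h. For the mean over both times, in which effects of opposite sign cancel, they all lay between -0.41, the lower bound of RFC3, and 0.42, the upper bound of KIF11. At 3 d PCNA averaged 949 ± 69.4 in goggled and 926 ± 78.3 in open eyes (SD, n = 6 each). At 6 h it averaged 850 ± 115 in goggled and 815 ± 109 in open eyes. Its goggle effect over both times was 0.05 on the log2 scale, with an interval from -0.09 to 0.19. At 3 d MKI67 averaged 30.1 ± 5.69 in goggled and 30.95 ± 7.18 in open eyes. At 6 h it averaged 39.3 ± 11.6 in goggled and 38.05 ± 7.64 in open eyes. Its goggle effect over both times had an interval from -0.19 to 0.19 on the log2 scale. Goggled and open eyes overlapped for every tested member at both times, where 0.261% of all genes at 3 d and 0.108% at 6 h did not overlap.

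**Figure D2:**
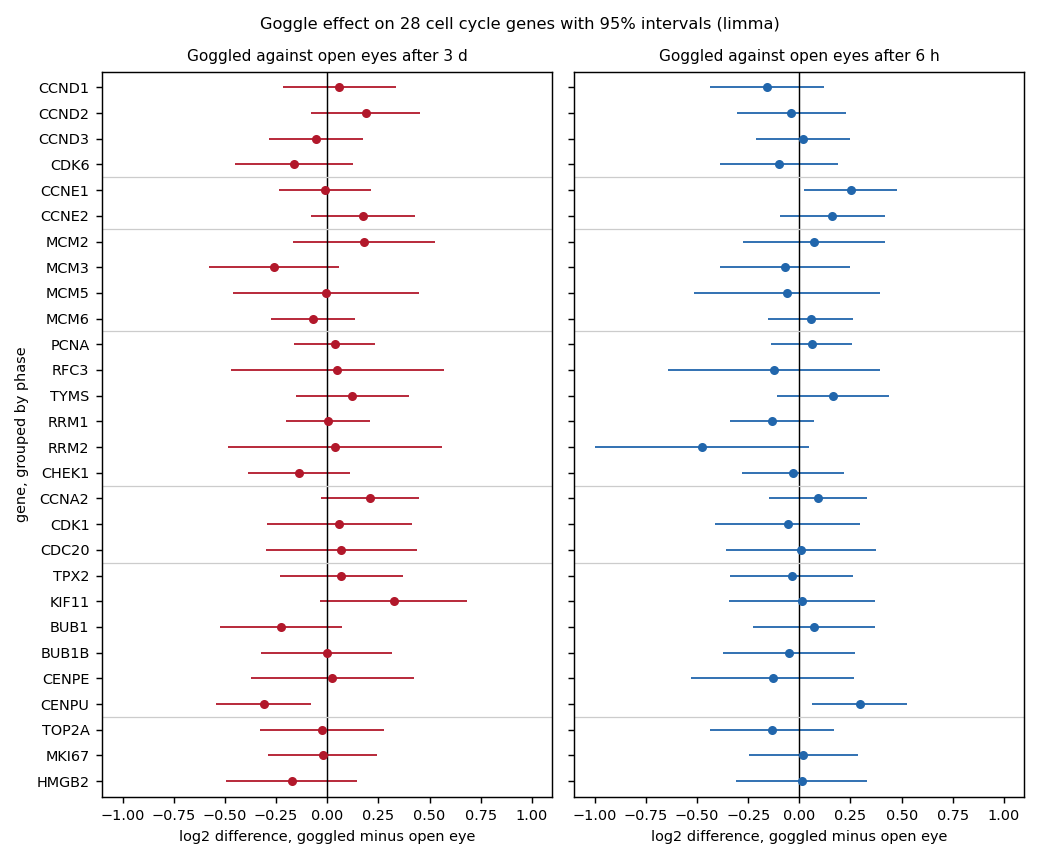
Log2 difference between goggled and open eyes with its 95% interval, from the fit without a chick term, for the 28 tested members, after 3 d and after 6 h. The intervals cross 0 for all but CENPU at 3 d and for all but CCNE1 and CENPU at 6 h.

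Within chicks, few members moved the same way in every pair. At 3 d, 2 of 28 members had the same direction in 6 of 6 chicks, against 5.42% of all genes, and at 6 h 3 of 28, against 3.54%. At 3 d CCNA2 was higher in the goggled eye of 6 of 6 chicks. Its lowest, median and highest signals were 49.2, 67.0 and 78.5 in goggled and 41.0, 59.3 and 64.7 in open eyes. The groups overlapped, and the log2 difference of 0.21 (SE 0.12) did not pass in limma (adjusted p = 0.922). The fit used for this and the genes below held no chick term, so it does not test the paired difference. With the chick as a random or fixed block the limma adjusted p for CCNA2 was 0.508 or 0.479. At 6 h CCNA2 was higher in 4 chicks, lower in 1 and equal in 1.

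At 6 h RRM2 and CDK6 were lower in the goggled eye of 6 of 6 chicks. RRM2 had 4.3, 10.4 and 16.8 as its lowest, median and highest signals in goggled and 4.6, 20.4 and 34.7 in open eyes, a log2 difference of -0.48 (SE 0.25, limma adjusted p = 1) in a gene near background. CDK6 differed by -0.10 on the log2 scale, with an SE of 0.14 and a limma adjusted p of 1. Both were lower in 10 of 12 chicks over both times, and CCNE2 and CCNA2 were higher in 10 of 12. None of these genes passed in limma over both times, and the share of all genes with such counts was not computed. No member moved the same way in 12 of 12.

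CENPU differed in opposite directions at the 2 times, without passing the test. At 3 d its lowest, median and highest signals were 11.2, 16.1 and 20.8 in goggled and 17.4, 22.6 and 35.3 in open eyes, and it was lower in the goggled eye of 6 of 6 chicks. At 6 h they were 18.3, 24.9 and 29.5 in goggled and 11.6, 18.9 and 22.0 in open eyes, and it was higher in the goggled eye of 6 of 6. The groups overlapped at both times. The log2 differences were -0.31 at 3 d and 0.29 at 6 h (SE 0.11 each, limma adjusted p = 0.758 and 1). The difference between these effects was -0.61 (SE 0.16, limma adjusted p = 0.9999). With the chick as a random or fixed block the limma adjusted p was 0.267 or 0.345 at 3 d. At 6 h it was 0.9997 or 0.9971. CENPU was near background, and a second probe set for CENPU differed by 0.24 at 3 d and -0.06 at 6 h.

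Eyes at 3 d were compared with eyes at 6 h to ask what changed between the times whatever the eye saw. The chicks at 3 d were older, had worn the goggle longer and were different birds, and may have been killed at another hour of the day. These differences cannot be told apart. In a fit of both eyes that held the chick as a random block, 3 of 28 members passed, 1 higher and 2 lower, against 17.7% of all genes (8.23% higher and 9.52% lower). Single eyes of the times overlapped for every member, where 0.909% of all genes did not overlap. Averaged over both eyes of a chick, BUB1 did not overlap, with 21.4 to 35.85 at 3 d and 36.1 to 51.8 at 6 h. The share of all genes without overlap by chick was not computed. At an unadjusted p under 0.05 there were 11 of 28 members, against 32.0% of all genes. Members were higher at 3 d in 14 of 28, with a median log2 difference of 0.003, against 45.5% and -0.02 over all genes.

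TOP2A fell. Its lowest, median and highest signals over 12 eyes were 39.4, 58.95 and 83.9 at 3 d and 50.1, 83.85 and 109.5 at 6 h. The means of the 6 chicks averaged 59.3 ± 10.04 at 3 d and 81.6 ± 14.0 at 6 h (SD), and the chicks overlapped. The log2 difference was -0.37 (SE 0.12, limma adjusted p = 0.0291). It was -0.31 in goggled and -0.42 in open eyes, and neither passed by itself (limma adjusted p = 0.164 and 0.0834). After quantile normalization the difference was -0.25 (limma adjusted p = 0.102) and after median centring -0.20 (0.153).

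TYMS fell as well. Its lowest, median and highest signals were 303, 392 and 584 at 3 d and 417, 494 and 681 at 6 h and the times overlapped. Chick means averaged 409 ± 75.2 at 3 d and 512 ± 58.0 at 6 h (SD, n = 6 each). The log2 difference was -0.32 (SE 0.10, limma adjusted p = 0.0307), with -0.34 in goggled and -0.30 in open eyes. It was -0.35 after quantile normalization, where it passed (limma adjusted p = 0.0203), and -0.16 after median centring, where it did not (0.390). Without the 4 stroma-rich arrays TYMS missed the threshold (limma adjusted p = 0.0908).

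CCND1 rose by its brightest probe set. The lowest, median and highest signals were 741, 954 and 1148 at 3 d and 618, 702 and 1106 at 6 h. The highest 6 h signals, 1106 in open replicate 3 and 1031 in open replicate 1, lay inside the range at 3 d. The log2 difference was 0.31 (SE 0.10, limma adjusted p = 0.0399). A second probe set for CCND1, with means of 801 at 3 d and 812 at 6 h, differed by -0.03 (SE 0.11, limma adjusted p = 0.883), and the mean of both by 0.14 (0.334). CCND1 also missed the threshold after quantile normalization (0.27, limma adjusted p = 0.0585) and without the 4 stroma-rich arrays (0.32, limma adjusted p = 0.0526). The call was lost in 15 of 24 fits that left out 1 array (limma adjusted p up to 0.0655). It was kept only without open replicate 1, 3 or 4 or goggled replicate 1 or 4 at 6 h, and without open replicate 2 or 6 or goggled replicate 2 or 3 at 3 d.

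Among the members that missed the threshold were CCNE2 at -0.26 on the log2 scale, BUB1 at -0.30, MKI67 at -0.23, CDK6 at 0.26, MCM6 at 0.19 and RFC3 at 0.44 (limma adjusted p = 0.0583, 0.0797, 0.108, 0.0968, 0.107 and 0.106). MKI67 averaged 30.5 ± 5.70 over the chicks at 3 d and 38.7 ± 9.11 at 6 h (SD, n = 6 each), and after quantile normalization its difference was -0.07 on the log2 scale. Cyclin E2 and BUB1 are likewise dim, and after quantile normalization they differed by -0.10 and -0.14. HMGB2, listed with TOP2A and MKI67 as a chromatin protein of cycling cells, went the other way. Its log2 difference was 0.24 and did not pass. Its chick means averaged 727 ± 103 at 3 d and 617 ± 133 at 6 h (SD, n = 6 each).

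**Figure D3:**
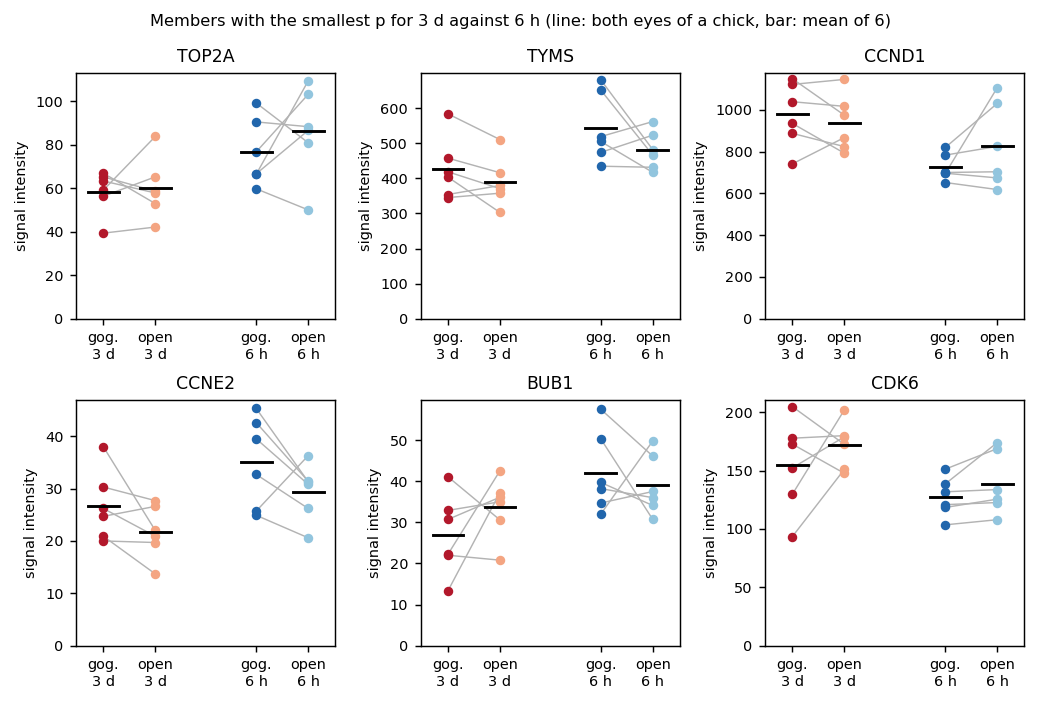
Signal intensity of the 6 members with the smallest p for 3 d against 6 h, with goggled and open eyes at 3 d left and at 6 h right, a grey line joining both eyes of a chick and a black bar at the mean of 6. TOP2A and TYMS are lower at 3 d in both eyes, CCND1 and CDK6 higher, and the 3 d and 6 h points overlap in every panel.

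The number of members higher at 3 d depended on the scaling of the arrays. All arrays had been scaled to the same trimmed mean of 150.03, but at 3 d their median signals were lower, and the median difference of all probe sets between the times was -0.07 on the log2 scale. It was -0.001 after quantile normalization and 0.09 after median centring. Higher at 3 d were 14 of 28 members as deposited, 18 after quantile normalization and 22 after median centring. The members' median log2 differences, by their brightest probe sets, were 0.003, 0.13 and 0.16. They lay above the median of all probe sets under each scaling, but that set is wider than the brightest probe set of each gene. As deposited, the median over all genes by their brightest probe sets was -0.02. For the other scalings that median is not given here. Of the spindle and kinetochore genes, 1 of 6 was higher as deposited, 3 after quantile normalization and 5 after median centring. The DNA synthesis group was the same under all 3, with 5 of 6 higher and TYMS as the exception, and origin licensing and firing had 3, 4 and 4 of 4 higher. After quantile normalization TYMS, CDK6 and CCNA2 passed, the first lower and the others higher. Over all probe sets, of which 19.2% were called, the calls were 1775 higher and 3385 lower as deposited, 2001 and 2024 after quantile normalization, and 5320 and 1063 after median centring.

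Taken eye by eye, goggled eyes gave 3 of 28 members between 3 d and 6 h, 1 higher and 2 lower, against 11.3% of all genes (5.24% higher and 6.03% lower) and 12.7% of probe sets. At an unadjusted p under 0.05 they gave 8 members, against 26.1% of all genes. Open eyes gave 0 of 28 in limma, against 6.02% of all genes (2.62% higher and 3.4% lower) and 7.32% of probe sets, and 7 at an unadjusted p under 0.05, against 21.1%. These counts hold for the brightest probe set of each gene. The times overlapped for every member in goggled and in open eyes, where 5.86% and 3.02% of all genes did not. In goggled eyes CCND1 rose by 0.41, while BUB1 fell by 0.45 and CENPU by 0.36 in log2 units, with SEs of 0.13, 0.14 and 0.11 (limma adjusted p = 0.0434, 0.0414 and 0.0348). BUB1 had 13.3, 26.5 and 41.1 as its lowest, median and highest signals in goggled eyes at 3 d and 32.0, 38.9 and 57.5 in goggled eyes at 6 h, and 3 of the 6 eyes at 3 d were above background. The difference between goggled and open eyes in these changes did not pass for any of the 3 (limma adjusted p = 0.9999 each). After quantile normalization the differences were 0.36, -0.25 and -0.19 on the log2 scale and none passed (limma adjusted p = 0.0764, 0.297 and 0.323). BUB1 also missed the threshold with the chick as a random block (0.0507). Leaving out goggled replicate 5 or 6 at 6 h, or goggled replicate 2 at 3 d, left 0 members called.

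Probe sets of the same gene did not always move together, and CDK6 and CHEK1 were the clearest cases. The brightest CDK6 probe set averaged 164 at 3 d and 133 at 6 h. Its other 4 tested probe sets were all lower at 3 d. Of these, 3 fell. One averaged 37.2 at 3 d and 55.3 at 6 h, one 11.03 at 3 d and 44.5 at 6 h, and one 16.6 at 3 d and 31.9 at 6 h. Their log2 differences were -0.42, -1.14 and -0.57 (limma adjusted p = 0.0157, 0.000763 and 0.0086). The last averaged 68.7 at 3 d and 80.9 at 6 h and did not pass (log2 difference -0.21, limma adjusted p = 0.165). The mean of all 5 passed as lower. For CHEK1 the brightest probe set averaged 230 at 3 d and 205 at 6 h, a log2 difference of 0.16 (SE 0.09, limma adjusted p = 0.222), and a second averaged 65.2 at 3 d and 91.6 at 6 h and fell, with a log2 difference of -0.41 (limma adjusted p = 0.0139). MCM6 probe sets also lay on both sides of 0, with 0.19 for the brightest and -0.15 and -0.17 for the others, none of which passed. Taken eye by eye, other probe sets of CDK6 and TPX2 passed as lower at 3 d in open eyes, and of CDK6 and CHEK1 in goggled eyes. The TPX2 call was lost in 16 of 24 fits that left out 1 array, with log2 differences from -0.81 to -0.60. The sources used here do not place these probe sets within the transcripts. The direction over time of CDK6 and CHEK1 is therefore not settled by these arrays.

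**Figure D4:**
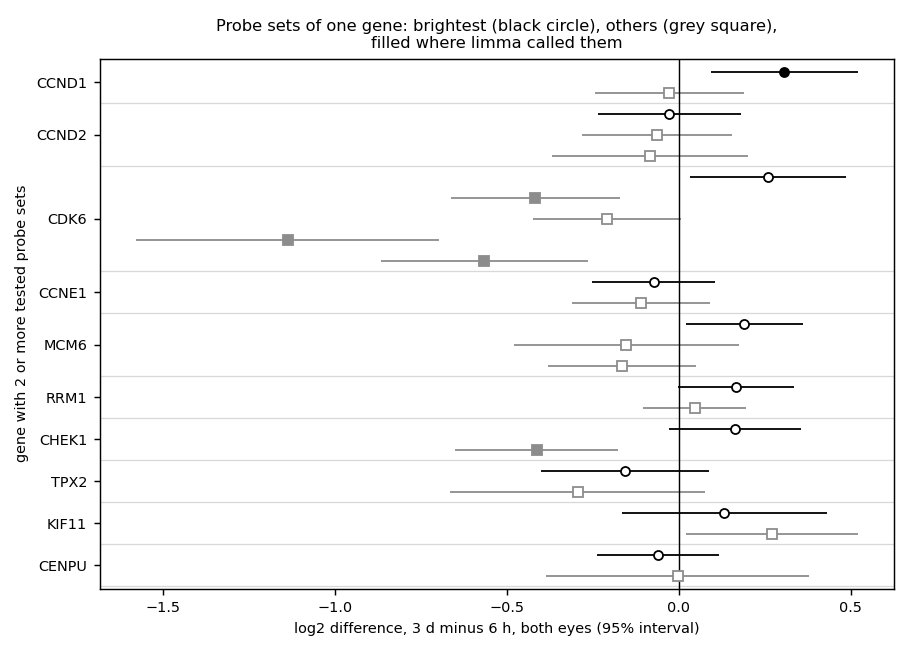
Log2 difference between 3 d and 6 h over both eyes, with its 95% interval, for every tested probe set of the 10 members that have more than 1, filled where it passed. The 5 CDK6 probe sets run from 0.26 to -1.14, and those of CHEK1 lie on both sides of 0.

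One array stood out by the number of members with their highest signal on it. Goggled replicate 3 at 3 d held the highest of 24 signals for 6 of 28 members (CCND2, MCM2, RRM2, CDK1, TPX2 and CENPE), against 5.89% of all genes, and the lowest for 0. For CDK1 it read 143.5, where the other 5 goggled eyes at 3 d ranged from 48.6 to 94.1. The same array had the highest summed signal of the 10 tested stromal markers, 5945, where the median of its group was 534, and the highest sums of the 7 endothelial, 8 microglial and macrophage, 10 pigment epithelium and 5 erythroid genes tested. The part of these cells in the members' signals was not tested. Without this array 5 members passed between the times over both eyes (CCND1 higher, TOP2A, TYMS, BUB1 and CCNE2 lower), in place of 3. Counted by the 3 highest signals of each member, this array did not stand apart, with 7 of 28. Goggled replicate 5 at 3 d and goggled replicate 4 at 6 h had 7 each, with stromal means of 5.76 and 5.79. The shares of all genes on these arrays were 14.6%, 10.1% and 11.9%.

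**Figure D5:**
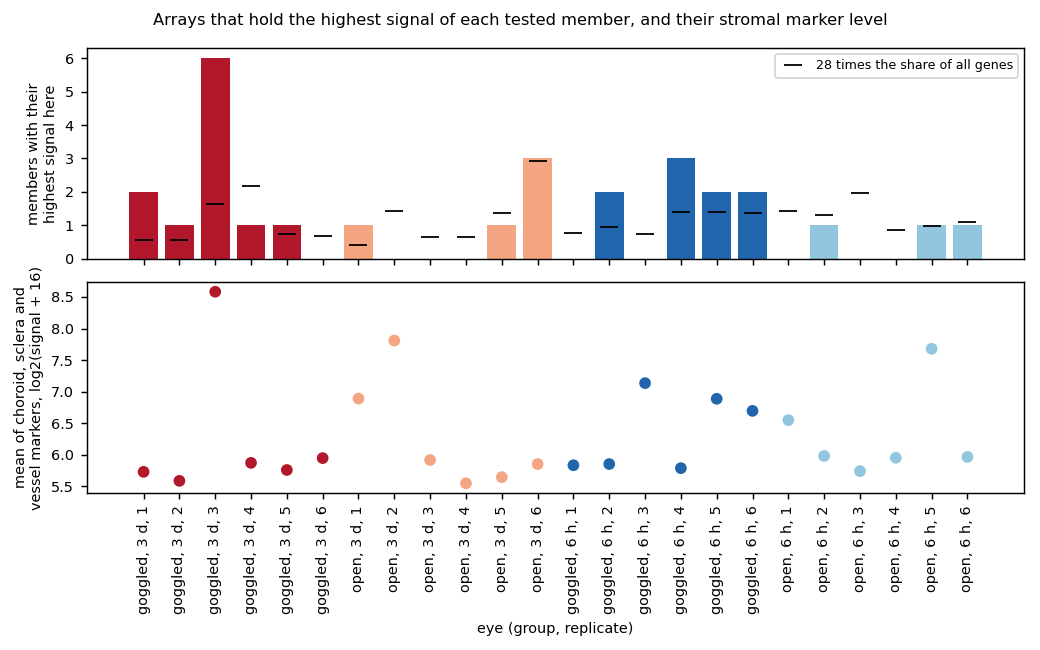
Number of the 28 tested members whose highest signal fell on each array (bars, above, with black marks at 28 times the share of all genes) and the mean log2 signal of 10 stromal markers on the same array (points, below). Goggled replicate 3 at 3 d has 6 members and the highest stromal mean, 8.58.

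Markers of other cells were set beside the time comparison. Of the 5 erythroid genes tested, 5 were lower at 3 d with a median log2 difference of -0.43, or 4 of 5 after quantile normalization, and none passed. Their summed signal ranged from 492 to 9471 at 3 d and from 778 to 6212 at 6 h. Of the 10 pigment epithelium genes 9 were higher at 3 d (median 0.32) and none passed, with sums from 4834 to 13360 at 3 d and from 4942 to 10105 at 6 h. The stromal list had 4 of 10 higher (median -0.09), with sums from 433 to 5945 at 3 d and from 522 to 2952 at 6 h. With the stromal mean as a covariate CCND1, TOP2A and TYMS passed over both eyes. Without the 4 stroma-rich arrays 2 members passed, TOP2A and BUB1 (limma adjusted p = 0.0274 and 0.0411), and CCND1 and TYMS did not. These arrays were picked against the median of their own group. Goggled replicate 3 at 6 h, with a stromal mean of 7.14, was thus kept, while open replicate 1 at 3 d, with 6.89, was left out. The share of all genes that passed in this fit is not given here.

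Further lists of cycle genes were read against the 17.7% of all genes that passed between the times over both eyes. Of 37 other replication genes tested, 1 rose and 1 fell over both eyes. POLE2, a subunit of the leading-strand polymerase, averaged 486 ± 47.7 at 3 d and 375 ± 65.1 at 6 h (SD over 12 eyes of 6 chicks at each time). Its log2 difference was 0.37 (limma adjusted p = 0.0058). POLE, its catalytic subunit, fell by 0.35 on the log2 scale (limma adjusted p = 0.0313), and by 0.21 after quantile normalization, where it did not pass (0.193). Of 35 other G2 and M genes 17 were higher at 3 d, and 1 passed as deposited. This was NCAPD3, a condensin subunit, which fell, with 39.9 ± 7.25 at 3 d and 62.6 ± 8.71 at 6 h (SD over 12 eyes of 6 chicks at each time). Its log2 difference was -0.50 (limma adjusted p = 0.000333). After quantile normalization 3 of the list passed as higher and 1 as lower, and after median centring 8 and 1. The 17.7% of all genes holds for the deposited scaling only, and the shares under the others are not given here. Over all probe sets, calls as higher also far outnumbered calls as lower after median centring, as given above. The counts of the list are therefore not read as a rise of these genes. In open eyes NCAPD3 fell by 0.52 on the log2 scale and NCAPG, another condensin subunit, rose by 0.47 (limma adjusted p = 0.00576 and 0.0297), beside 6.02% of all genes. NCAPG was dim, with open-eye means of 24.75 at 3 d and 14.3 at 6 h, where background was 22.8.

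Among regulators of the cycle, 1 of 13 transcription factors and 3 of 12 inhibitors or pocket proteins passed over both eyes, beside 17.7% of all genes. Of the 13 transcription factors tested 1 fell: MYCN, a growth-promoting factor active in retinal progenitors, averaged 167 ± 20.04 at 3 d and 247 ± 22.8 at 6 h (SD over 12 eyes of 6 chicks at each time). Its log2 difference was -0.53 (SE 0.07, limma adjusted p = 4.15e-05), with -0.45 in goggled and -0.61 in open eyes, both of which passed (limma adjusted p = 0.00314 and 0.000647). Over both eyes it was -0.52 after quantile normalization and -0.37 after median centring, and passed in both. In goggled eyes it did not pass after median centring (limma adjusted p = 0.113). Of 12 inhibitors and pocket proteins tested, RBL2, the pocket protein p130 of resting cells, rose by 0.26 on the log2 scale, while TOB1, an antiproliferative protein, fell by 0.69 and WEE1, the kinase that restrains CDK1, fell by 0.24 (limma adjusted p = 0.00733, 0.00211 and 0.0408). RBL2 and TOB1 passed under all 3 scalings and WEE1 missed the threshold after median centring (-0.08, limma adjusted p = 0.615).

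Genes of the ciliary margin and retinal progenitors were measured because that zone is where division persists. Of 14 tested, 7 were higher and 7 lower at 3 d over both eyes, with a median log2 difference of 0.02. Past the threshold 3 rose and 1 fell, beside 17.7% of all genes. CRABP1, a retinoic acid binding protein, averaged 541 ± 145 at 3 d and 355 ± 64.3 at 6 h (SD over 12 eyes of 6 chicks at each time). Its log2 difference was 0.56 (limma adjusted p = 0.00692). HEY1, a Notch target, rose by 0.38 on the log2 scale and SIX3, an eye-field factor also used in the mature retina, by 0.38 (limma adjusted p = 0.00304 and 0.0377), while NOTCH1, the receptor, fell by 0.60 (0.0243). CRABP1 and HEY1 passed under all 3 scalings, while SIX3 and NOTCH1 did not pass after quantile normalization (limma adjusted p = 0.0957 and 0.0632). In goggled eyes alone, where 11.3% of all genes passed, SFRP2, a Wnt antagonist, also fell by 0.46 on the log2 scale (limma adjusted p = 0.0411). SFRP2 did not pass there after quantile normalization or median centring (limma adjusted p = 0.057 and 0.199). Of 7 Müller glia genes 2 rose as deposited, SLC1A3 and RLBP1, a glutamate transporter and a retinoid carrier, and 0 passed after quantile normalization.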

How the data were processed

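The study measured gene expression in combined retina and pigment epithelium of 24 eyes of 12 chicks. RNA (3 µg an eye) was amplified, biotin-labelled and put on 1 array per eye, and GCOS version 1.4 read the arrays, per the labels' protocols. The names GCOS and RMA stand in the submitters' processing notes with no roles. The deposited values are linear intensities, 1 per probe set and array, each array with a 2% trimmed mean of 150.03. The sources used here do not say which software made the values.

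Of 38535 probe sets 96 controls were removed. 16 was added before log2, so that differences of dim genes are understated, and probe sets below the 30th percentile of the mean (13.4) were left out, which left 26907. The platform annotation named 1 gene for 27168 probe sets, more than 1 for 177 and left 11094 unnamed, and 26863 symbols were matched by gene ID to the RefSeq table of assembly GRCg7b. Linear models with 4 group means over all 24 arrays (20 residual degrees of freedom) were fitted with limma 3.58.1 in R 4.3.3 (eBayes), Benjamini-Hochberg adjustment ran over every tested probe set, and 0.05 was the threshold. For both eyes together the chick was a random block (correlation 0.27). The fits were tested on simulated data. Python 3.11.15 with matplotlib 3.10.9 drew the figures. Of genes that are no members, at most 4 per list, comparison and direction were named among those that passed, by smallest p.

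Eyes of equal replicate number were taken as a pair. The labels do not state which arrays pair, so this was checked. Deviations from the group means correlated by 0.102 to 0.445 in the 6 pairs at 3 d and by 0.229 to 0.424 at 6 h, each over 0.1. Means for other chicks were -0.055 and -0.069. Centring on the group means itself pushes these below 0, so they are no separate support. The open eye correlated best with its own partner in 5 of 6 chicks at 3 d and 6 of 6 at 6 h. The members and lists were chosen with earlier results of these data known. Alternatives were the block, the filter, the scaling, the offset, the variance prior, the probe set, the stromal markers, the threshold and leaving out each array.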

Additional observations from a re-analysis of the deposited data

Results flagged for a closer look

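In 4 of 112 groups of 6 eyes, 28 members in 4 groups each, 1 eye lay far from the other 5, with a gap to its neighbour, as a share of the group's range, above Dixon's 95% critical value. Chance alone gives about 1 in 20 such groups. CHEK1 read 278.5 in goggled replicate 2 at 6 h, against 177.7 to 208.8 in the other goggled eyes. The open eye of the same number read 281.5. KIF11 read 45.4 in goggled replicate 6 at 6 h, against 21.2 to 29.5 in the others. BUB1B, near background, read 27.0 in open replicate 2 at 3 d, against 9.1 to 12.9, and that array was rich in stromal markers. CENPU read 35.3 in open replicate 6 at 3 d, against 17.4 to 23.7.

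The goggle effect on CENPU was opposite at the 2 times, lower in 6 of 6 chicks at 3 d and higher in 6 of 6 at 6 h, with a difference of effects of -0.61 on the log2 scale that did not pass in limma's test of the difference (adjusted p = 0.9999). With the chick as a random block the adjusted p was 0.639 and as a fixed block 0.836.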

How the results depend on the processing

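No member passed in any goggle comparison, or in the difference of the goggle effects, under any of the 13 alternatives tried for each or without any single array. With the replicate block, random or fixed, 0 members passed in the 4 goggle comparisons. With a random replicate block 0 passed between the times in open eyes and 2 in goggled eyes. Between 3 d and 6 h over both eyes, with 3 members as the main value, 6 passed with no replicate block (2 higher and 4 lower), 9 after median centring (all higher) and 6 at an adjusted p under 0.10, and 2 to 5 without single arrays (5 without goggled replicate 3 at 3 d). In goggled eyes, with 3 as the main value, 1 passed with no filter, with a filter at the 50th percentile, after quantile normalization and with an offset of 64, and 6 passed after median centring (all higher), with 0 to 3 without single arrays: 0 without goggled replicate 5 or 6 at 6 h or 2 at 3 d, and 1 without goggled replicate 1 or 3 at 6 h or 1, 5 or 6 at 3 d. In open eyes, with 0 as the main value, 3 passed after median centring, 2 with the mean of probe sets and 1 at an adjusted p under 0.10, and 0 to 1 without single arrays (1, TOP2A, without open replicate 4 at 6 h or 2 at 3 d). The cause was not tested, except that the threshold of 0.10 admits more by construction. No member called as deposited changed sign. CDK6, not called as deposited, was called higher after quantile normalization and median centring and lower with the mean of its probe sets. Over all probe sets, goggled eyes gave 3416 calls (1110 higher, 2306 lower), 2167 after quantile normalization (1044 and 1123) and 4906 after median centring (4226 and 680). Open eyes gave 1970 (703 and 1267), 1719 after quantile normalization (803 and 916), 2535 after median centring (2030 and 505), 580 with the mean of probe sets and 885 without the stroma-rich arrays. The mean of probe sets gave 1124 in goggled eyes and 1716 over both eyes, where the main count was 5160. Goggled against open eyes gave 2 calls at 3 d, 0 to 4 under the alternatives, and 2 over both times, up to 13 with the replicate block. Dim members had values that depend on the offset. BUB1, with a mean signal of 35.5 above the background of 22.8, fell in goggled eyes by 0.67 with an offset of 1 and by 0.22 with 64.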

Other observations

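Genes of cones and rods, cells that do not divide, also differed between the times. Of 9 tested, 3 rose over both eyes as deposited, beside 17.7% of all genes that passed. PDE6C, the cone phosphodiesterase, averaged 1568 ± 198 at 3 d and 1126 ± 135 at 6 h (SD over 12 eyes of 6 chicks at each time). Its log2 difference was 0.47 (limma adjusted p = 0.000498). PDE6B and ARR3, the rod phosphodiesterase subunit and cone arrestin, rose by 0.48 and 0.42 on the log2 scale (limma adjusted p = 0.0147 and 0.0207). PDE6C and PDE6B passed under all 3 scalings, and ARR3 missed the threshold after quantile normalization (0.112).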
